A study of Mus musculus with 8 samples.

Results

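The hippocampus and the prefrontal cortex were compared in 6 of the 8 libraries of the series, 3 from each tissue. A library was included when the mouse group it came from had a partner in the other tissue that could be told apart from it: the context controls taken at 1 h, the context controls taken at 6 h and the conditioned mice taken at 6 h. The conditioned 1 h libraries of both tissues were left out, because the deposited counts of that pair agree within counting noise. The mice were C57Bl/6, 7 to 9 weeks old. Controls were placed in the conditioning context alone, and conditioned mice were trained in contextual fear conditioning, in which a chamber is paired with foot shock. RNA bound to polyribosomes was collected, so a value stands for messages recovered with ribosomes, and no total RNA was used here. The cortex is labelled frontal cortex in the tissue field and prefrontal cortex in the protocol, and the protocol does not describe the dissection of the hippocampus. How many mice went into a library, and whether the same mice gave both tissues of a pair, was not given in the sources used here. The p-values therefore measure the spread between these libraries only, and that spread may be technical.

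The hippocampus is an older type of cortex. Granule cells of the dentate gyrus and pyramidal cells of fields CA1, CA2 and CA3 build it and form a loop with the subiculum. The prefrontal cortex is a layered neocortex, in which upper layers send axons to other cortical areas and deep layers send them to the thalamus, striatum and brainstem. Each principal cell type keeps its own set of transcription factors, channels, receptors and adhesion proteins into adult life, and these sets serve as markers of the tissue.

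The 6 libraries held between 2370973 and 5296986 counts and between 13607 and 15341 genes with a count. One library stood apart: the hippocampus control 6 h library, referred to as the Kif5c-rich library, was the shallowest, and a single gene, Kif5c, took 8.01% of its counts, against 0.55% in the hippocampus conditioned 6 h library and 0.04% to 0.07% in the other 4. The log2 ratio of hippocampus to cortex had an SD over all genes tested of 1.16 in the control 6 h pair, 0.72 in the control 1 h pair and 0.69 in the conditioned 6 h pair. Numbers of list members that passed are therefore also given without that library, and with the 6 h libraries alone, where either moved a number by more than 1.5 times. Values are CPM, read counts scaled to library size with TMM factors, always in the order control 1 h, control 6 h and conditioned 6 h, with n = 3 libraries per tissue. A log2 change is hippocampus over cortex with its standard error (SE), and a gene passed when its edgeR adjusted p was under 0.05. In such bulk samples, fewer cells of a type and less RNA per cell cannot be told apart.

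Of 11604 genes tested, 366 passed (3.15%), 175 of them higher in the hippocampus (1.51%) and 191 lower (1.65%). The shares higher and lower are the background against which each list count below is to be read. The median change over all genes tested was -0.005 on the log2 scale. Among the genes that passed, the median size of the change was 1.96 on the log2 scale and the smallest was 1.15, and 174 differed by at least 4-fold. All 366 had the same sign in each of the 3 pairs, and in 345 no hippocampus library overlapped a cortex library. Of the 191 lower genes, 8 belong to a set of duplicated genes that holds copies of Ccl27 and Il11ra and also Fam205a2, from -1.94 to -1.3. Members of this set can share reads and are not separate observations. Among all genes that passed, 5 had the same counts as another in all 6 libraries, in 2 patterns. Over all genes tested, the hippocampus lay above the cortex without overlap in 6.27% and below it in 6.59%. Leaving out the Kif5c-rich library, 606 genes passed, 344 of the 366 among them, and without its cortex partner 616 passed. Without the cortex or the hippocampus control 1 h library the counts were 80 and 70. With the block by pair, a library whose partner is left out adds nothing to the tissue term. The number of genes that passed thus depended on single pairs. The sign of each of the 366 held in all 4 of these fits, which are not 4 separate checks. It was already the same in each pair, so leaving out a library could hardly change it. With the 6 h libraries alone, which leave 1 residual degree of freedom, 98 genes passed. The same pairs carry the fits without either control 1 h library. The labels do not say that the libraries of a pair share animals, and without the block by pair 55 genes passed, all of them among the 366. Of the 118 genes named by rule, 68 lost their call without the block and 51 with the 6 h libraries alone.

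**Figure D1:**
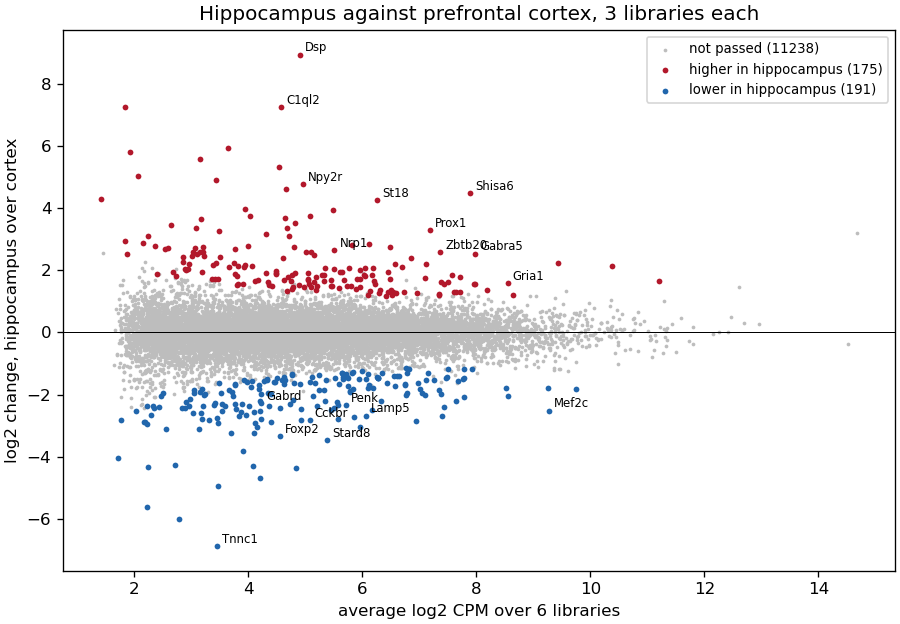
Each point is 1 of 11604 genes, with its average log2 CPM over the 6 libraries on the horizontal axis and its log2 change, hippocampus over cortex, on the vertical axis. The 175 genes that passed higher (red) and the 191 that passed lower (blue) span changes from 8.94 (Dsp) to -6.88 (Tnnc1), and genes that did not pass are grey.

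Messages of dentate granule cells were higher in the hippocampus in 10 of 20 listed markers, all tested, and lower in 0, with a median change of 1.53 on the log2 scale. Granule cells are the entry neurons of the hippocampus and are not found in neocortex. Prox1, a homeodomain transcription factor that specifies and maintains granule cells, stood at 170.2, 358 and 266 CPM in the hippocampus and at 23.6, 28.0 and 26.6 CPM in the cortex. All 3 hippocampus libraries lay far above the cortex libraries, which differed little among themselves (log2 change 3.29, SE 0.35, adjusted p = 9.51e-06). Dsp encodes desmoplakin, which anchors intermediate filaments at cell junctions. Its level was 26.8, 108 and 52.1 CPM in the hippocampus, while 397 counts in all stood against 1 in the cortex libraries (ratio 528, 95% counting interval 94.3 to 20910). C1ql2, a secreted protein that mossy fibre terminals of granule cells release to organise their synapses, had 46.0, 69.7 and 30.6 CPM in the hippocampus and 3 counts in all in the cortex (ratio 153, interval 51.8 to 743). These intervals cover counting error only, since amplified reads that carry no molecular identifier do not each stand for a molecule. Lct, the gene of intestinal lactase and a marker of granule cells in mice, was at 43.9, 39.5 and 61.2 CPM against 2.51, 1.3 and 2.08 CPM (log2 change 4.61, SE 0.44, adjusted p = 2.61e-06). Here the hippocampus control 6 h library was the lowest of the 3, the reverse of its place for Prox1, Dsp and C1ql2.

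The other granule cell markers that passed were Il16, a cytokine precursor (log2 change 3.75, SE 0.46, adjusted p = 4.2e-05), Tdo2, the enzyme that opens the tryptophan ring (2.88), Glis3, a zinc-finger factor (2.59), Dock10, an activator of small GTPases (2.20), Sema5a, a semaphorin (1.84), and Neurod1, a basic helix-loop-helix factor of granule cell differentiation (1.67). Sema5a was at 145, 548 and 226 CPM in the hippocampus and 55.5, 69.2 and 100 CPM in the cortex, so that the control 6 h library carried the highest level. The other 10 listed markers did not pass. Among them Calb1, a calcium buffer also found in cortical neurons, differed by 0.24 (SE 0.34) and Stxbp6 by 0.62 (SE 0.33), while Pdzd2 and Plk5 had negative values (-0.94 and -0.54). Granule cell markers that passed numbered 10 higher and 0 lower without the Kif5c-rich library and 6 and 0 with the 6 h libraries alone.

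Markers of CA1 pyramidal cells, the output neurons of the hippocampal loop, gave 6 higher and 1 lower of 11 tested (median 1.37). Fibcd1, a membrane receptor that binds acetylated sugars, had 72.5, 10.1 and 53.4 CPM in the hippocampus and 6.80, 2.33 and 2.87 CPM in the cortex. The control 6 h library was the low one on both sides, and the tissues still did not overlap (log2 change 3.36, SE 0.46, adjusted p = 0.000111). Zbtb20, a zinc-finger repressor that directs hippocampal neurons to a CA1 identity, was at 221, 363 and 267 CPM against 43.7, 58.3 and 39.9 CPM (log2 change 2.57, SE 0.33, adjusted p = 6.86e-05). Dcn, which encodes the matrix proteoglycan decorin, differed by 3.53 (SE 0.40), Gpr161, an orphan receptor of cilia, by 2.69 (SE 0.57), Pou3f1, a POU-domain factor, by 1.51 and Man1a, a mannosidase of glycoprotein trimming, by 1.37. Wfs1, a membrane protein of the endoplasmic reticulum that marks CA1, did not pass (-0.43). CA1 markers that passed numbered 6 higher and 1 lower without the Kif5c-rich library and 3 and 1 with the 6 h libraries alone.

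For CA2, CA3 and the mossy cells of the hilus, 5 of 17 markers tested were higher and 1 lower (median 1.06). Tspan18, a tetraspanin, stood at 32.1, 80.6 and 29.3 CPM in the hippocampus and 1.07, 0.259 and 1.82 CPM in the cortex (log2 change 5.31, SE 0.59, adjusted p = 3.24e-05). The transcription factor St18 was at 61.9, 272 and 112 CPM and 3.58, 10.1 and 7.55 CPM (log2 change 4.26, SE 0.39, adjusted p = 1.08e-06). In both genes the hippocampus control 6 h library was more than 2-fold above the others, which were still far above every cortex library. Cpne7, a calcium-dependent phospholipid-binding copine, was at 155, 79.0 and 124 CPM against 34.4, 8.81 and 13 CPM (log2 change 2.84, SE 0.36, adjusted p = 6.74e-05), and Amigo2, an adhesion protein enriched in CA2 and CA3a, at 12.7, 6.97 and 13.1 CPM against 4.65, 1.04 and 2.60 CPM (log2 change 2.05, SE 0.49, adjusted p = 0.0185). Amigo2 missed the threshold with DESeq2 (adjusted p = 0.0503), and its adjusted p over all alternatives ran from 0.00424 to 0.358. Grik4, the KA1 kainate receptor subunit of CA3, was higher as well (log2 change 1.98, SE 0.39, adjusted p = 0.00398). Coch, which encodes cochlin, was the exception, at 2.06, 6.2 and 3.121 CPM in the hippocampus and 16.8, 20.2 and 31.0 CPM in the cortex (log2 change -2.70, SE 0.48, adjusted p = 0.00154). Rgs14 and Pcp4, which mark CA2, did not pass (0.30 and -0.93). Of 4 subiculum markers tested, Dlk1, a Notch-like ligand, passed at 9.14, 20.9 and 14.1 CPM against 1.07, 2.85 and 2.60 CPM (log2 change 2.73, SE 0.47, adjusted p = 0.0013), and all 4 were positive. CA2, CA3 and mossy cell markers that passed numbered 7 higher and 2 lower without the Kif5c-rich library and 3 and 0 with the 6 h libraries alone. Those of the subiculum numbered 2 higher and 0 lower without the Kif5c-rich library and 0 and 0 with the 6 h libraries alone.

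Genes outside these marker lists filled much of the top of the ranking. The 12 largest differences among well-expressed genes on the hippocampal side included Slc9a4, a sodium-proton exchanger (15.3, 38.0 and 23.7 CPM against 0.358, 0.259 and 0.521 CPM, log2 change 5.93, SE 0.60, adjusted p = 4.51e-06), and Lhx9, a LIM-homeodomain transcription factor (13.9, 31.8 and 19.7 CPM against 0.716, 0.518 and 0.782 CPM, log2 change 4.92, SE 0.56, adjusted p = 1.89e-05). Cortical levels of both were under 1 CPM in every library. Serpina3g, a protease inhibitor that binds cathepsins, was at 11.2, 33.3 and 11.9 CPM against 0.358, 0.777 and 0 CPM (log2 change 5.57, SE 0.64, adjusted p = 1.89e-05), and its relative Serpina3n at 49.5, 66.6 and 60.2 CPM against 12.9, 9.85 and 7.29 CPM (log2 change 2.57, SE 0.38, adjusted p = 0.000278). They were the 2 higher of 8 interferon-induced and serpin genes tested, of which 0 were lower (median 0.16). The serpin genes lie in a cluster of similar copies that can share reads, so their separate values are uncertain. Il1r1, the signalling receptor of interleukin 1, was at 13.6, 65.8 and 15.9 CPM against 1.07, 1.81 and 2.08 CPM (log2 change 3.97, SE 0.53, adjusted p = 9.69e-05). Pkp2, a plakophilin that binds desmoplakin, was at 28.0, 202 and 35.9 CPM against 1.43, 7.26 and 5.21 CPM (log2 change 3.93, SE 0.46, adjusted p = 2.5e-05). For Il1r1 and Pkp2 the control 6 h library was at least 4-fold above the other hippocampus libraries, and the ratio in the other pairs was smaller.

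On the cortical side stood markers of upper-layer pyramidal neurons: of 13 tested, 8 were lower in the hippocampus and 0 higher, with a median of -2.33. Stard8, a lipid-transfer and GTPase-activating protein, was at 5.60, 6.2 and 8.12 CPM in the hippocampus and 90.9, 61.2 and 70.3 CPM in the cortex (log2 change -3.48, SE 0.40, adjusted p = 1.89e-05). The spread within each tissue was small beside the gap between them. Lamp5, a membrane protein of the lysosome family found in upper-layer neurons and some interneurons, was at 20.1, 15.5 and 17.2 CPM against 112, 99.2 and 127 CPM (log2 change -2.68, SE 0.35, adjusted p = 7.48e-05). Cux2, a homeodomain factor of layers 2 to 4, was at 15, 10.1 and 20.6 CPM against 100.2, 73.6 and 58.6 CPM (log2 change -2.33, SE 0.38, adjusted p = 0.000788). Mef2c, a MADS-box factor that shapes cortical synapses, stood at 87.0, 328 and 182 CPM against 663, 1154 and 1284 CPM (log2 change -2.53, SE 0.37, adjusted p = 0.000265). Tnnc1, the slow-muscle troponin C that is also an upper-layer marker, had 1 count in all in the hippocampus libraries and 194 in the cortex libraries, a ratio of 146 (95% counting interval 25.9 to 5789), with 31.9, 15 and 12.2 CPM in the cortex. Igfn1, an immunoglobulin-domain protein, had 1 count against 123 (ratio 92.5, interval 16.3 to 3681). Kcnh5, a voltage-gated potassium channel of the ether-a-go-go family (-2.43), and Plcxd2, a phospholipase-like protein (-1.31), made up the 8. Rorb, the orphan nuclear receptor of layer 4, did not pass (-1.25). Upper-layer markers that passed numbered 0 higher and 12 lower without the Kif5c-rich library and 0 and 5 with the 6 h libraries alone.

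Because the list of striated muscle markers shares Tnnc1 and Myl4 with the cortical lists, its other members were read alongside: of 16 listed, 12 were below the count filter, with at most 3.63 CPM in any of the 6 libraries, 3 of these (Actc1, Tnni2 and Tnnc2) were at 0 in all 6 libraries, and Acta1 and Myh7 did not pass (0.42 and -1.12).

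Deep-layer markers were divided, with 5 lower and 2 higher of 21 tested and a median of 0.04. Myl4, a myosin light chain, was at 2.36, 0.775 and 1.25 CPM in the hippocampus and 45.5, 21.8 and 23.7 CPM in the cortex (log2 change -4.31, SE 0.50, adjusted p = 2.29e-05). Foxp2, a forkhead factor of layer 6 corticothalamic neurons, was at 1.48, 8.52 and 3.43 CPM against 21.5, 54.4 and 43.5 CPM (log2 change -3.35, SE 0.44, adjusted p = 7.48e-05). Rprm, a p53 target that marks layer 6, was at 14.8, 3.87 and 5.93 CPM against 32.9, 37.6 and 24.8 CPM (log2 change -1.99, SE 0.43, adjusted p = 0.00935), and Tbr1, the T-box factor that specifies layer 6, at 56.9, 89.9 and 64.9 CPM against 313, 226 and 220.4 CPM (log2 change -1.85, SE 0.34, adjusted p = 0.00225). These 4 lay lower in every hippocampus library than in any cortex library, as did Syt6, a synaptotagmin (-1.60). The 2 deep-layer markers that were higher in the hippocampus were Sema3e, a secreted semaphorin, at 37.2, 134 and 70.9 CPM against 14, 19.7 and 22.4 CPM (log2 change 1.95, SE 0.37, adjusted p = 0.00302), and Tshz2, a teashirt zinc-finger factor, at 54.0, 144 and 82.1 CPM against 16.8, 36.0 and 29.2 CPM (log2 change 1.72, SE 0.34, adjusted p = 0.00373). Fezf2 and Bcl11b, which specify subcerebral projection neurons, did not pass (0.56 and 0.38). Deep-layer markers that passed numbered 4 higher and 6 lower without the Kif5c-rich library and 1 and 3 with the 6 h libraries alone.

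Striatal projection neuron messages were also lower in the hippocampus: all 11 markers tested were negative, 6 passed, and the median was -2.34. Ppp1r1b, which encodes DARPP-32, the phosphatase inhibitor that relays dopamine signals, was at 56.0, 3.10 and 38.4 CPM in the hippocampus and 318, 206 and 109 CPM in the cortex (log2 change -2.87, SE 0.56, adjusted p = 0.00596). Its cortical level varied about 3-fold between libraries, and the groups still did not overlap. Ppp1r1b missed the threshold with DESeq2 (adjusted p = 0.0908), and its adjusted p over all alternatives ran from 4.66e-11 to 0.353. Penk, the enkephalin precursor, was at 17.4, 13.2 and 19.7 CPM against 89.1, 93.3 and 75.3 CPM (log2 change -2.34, SE 0.36, adjusted p = 0.000414), and Drd1, the D1 dopamine receptor, at 2.06, 0.775 and 2.50 CPM against 11.8, 15.8 and 9.90 CPM (log2 change -2.60, SE 0.52, adjusted p = 0.00431). Scn4b, a sodium channel beta subunit (log2 change -2.77, SE 0.43, adjusted p = 0.000491), and Tac1, the substance P precursor (log2 change -2.35, SE 0.56, adjusted p = 0.023), were lower too. The summed level of the 11 genes ranged from 191 to 208 CPM in the hippocampus libraries and from 411 to 759 CPM in the cortex libraries. Drd2 and Pde10a did not pass (-1.79 and -0.66), and the 4 remaining markers of the list were below the count filter. Striatal markers that passed numbered 0 higher and 9 lower without the Kif5c-rich library and 0 and 4 with the 6 h libraries alone. Several of these genes are also active in cortical neurons, and whether striatal tissue entered the cortex samples was not tested.

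**Figure D2:**
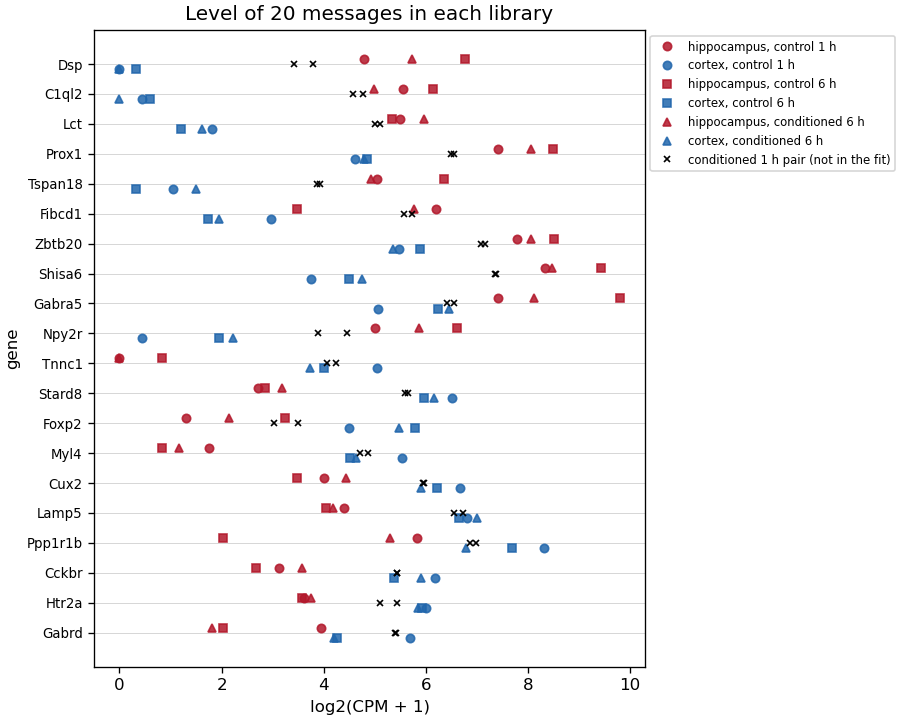
Level of 20 genes on a log2(CPM + 1) axis, with hippocampus libraries in red, cortex libraries in blue and a marker shape for each pair. In all 20 genes the red and blue points do not overlap, and the black crosses, the conditioned 1 h libraries that were not in the fit, lie between the lowest and the highest of them.

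Promoter sequences are shown for 2 of the markers that were higher and 2 that were lower, as the genome regions from which these messages start. They are the 250 bases before the annotated start of the gene in RefSeq (mouse build GRCm38.p6), written 5′ to 3′ on the strand of the gene, with any of 5 searched motifs in capitals. The motifs, searched on both strands with overlaps allowed, were CAGATG (an E-box bound by NeuroD-type factors), TAATTA (LIM homeodomain), TGTTTAC (forkhead), AGAACA (a corticosteroid receptor half-site) and TATAAA (1 form of the TATA box). Only these exact letters were searched, so other forms are not marked. Prox1 lies at chr1:190170828-190171077 on the minus strand, C1ql2 at chr1:120340332-120340581 on the plus strand, Tnnc1 at chr14:31208062-31208311 on the plus strand and Lamp5 at chr2:136052089-136052338 on the plus strand.
Prox1: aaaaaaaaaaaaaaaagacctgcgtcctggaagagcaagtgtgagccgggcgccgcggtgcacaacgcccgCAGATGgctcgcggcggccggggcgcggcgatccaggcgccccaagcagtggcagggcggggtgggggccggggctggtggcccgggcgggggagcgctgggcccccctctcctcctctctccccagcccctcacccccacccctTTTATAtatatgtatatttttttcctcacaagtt
C1ql2: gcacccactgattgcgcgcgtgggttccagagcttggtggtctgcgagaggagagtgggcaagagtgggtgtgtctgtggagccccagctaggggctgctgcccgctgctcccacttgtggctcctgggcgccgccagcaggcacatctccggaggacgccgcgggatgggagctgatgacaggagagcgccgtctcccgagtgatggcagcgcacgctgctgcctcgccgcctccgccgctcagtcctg
Tnnc1: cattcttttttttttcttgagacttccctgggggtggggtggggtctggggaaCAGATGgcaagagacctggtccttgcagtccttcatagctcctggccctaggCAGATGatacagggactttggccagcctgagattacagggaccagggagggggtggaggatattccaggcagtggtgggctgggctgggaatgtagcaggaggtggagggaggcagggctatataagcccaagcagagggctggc
Lamp5: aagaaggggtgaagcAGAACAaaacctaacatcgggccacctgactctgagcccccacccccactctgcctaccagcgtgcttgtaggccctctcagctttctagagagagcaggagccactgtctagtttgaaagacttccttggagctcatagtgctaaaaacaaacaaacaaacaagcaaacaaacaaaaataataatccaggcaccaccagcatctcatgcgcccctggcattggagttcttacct
The capitals in Prox1 are a CAGATG E-box and TATAAA on the opposite strand, those in Tnnc1 are a pair of CAGATG E-boxes, and the one in Lamp5 is AGAACA. Tnnc1 also holds the TATA-like run tatataag near the end of its window, which the search did not cover. The C1ql2 window holds none of the 5 motifs. Among genes with a promoter in the table, CAGATG was present in 15% of the 133 that were higher, in 9.2% of the 142 that were lower, in 9.1% of the 9007 tested and in 14.5% of all 27025. The exact TATAAA was present in 9% of the higher and 9.2% of the lower promoters, against 6.1% of those tested and 13% of all. AGAACA was present in 9% and 9.9%, against 10.2% of those tested and 16.2% of all, TAATTA in 1.5% and 4.9% (2.2% and 4.9%), and TGTTTAC in 3% and 3.5% (1.9% and 3.1%). A match describes these letters in this window and is not a binding site.

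Transcription factors of forebrain patterning, which assign regional and laminar identity in development, were divided in both directions: of 57 tested, 12 were higher and 8 lower in the hippocampus (median 0.38). Apart from Prox1, Lhx9, St18 and Zbtb20, the higher ones included Glis3 at 18.3, 12.4 and 9.05 CPM against 3.58, 2.59 and 0.782 CPM (log2 change 2.59, SE 0.48, adjusted p = 0.00269) and Nr2f2, which encodes COUP-TFII, at 24.8, 129 and 40.0 CPM against 7.52, 11.9 and 8.34 CPM (log2 change 2.505, SE 0.41, adjusted p = 0.000732). Neurod6, a neuronal helix-loop-helix factor, differed by 1.57 and Zfpm2, a GATA cofactor, by 1.49. The 8 lower factors included Foxp2, Mef2c, Cux2, Tbr1, Meis2, Tshz3 and Fign. Meis2, a TALE homeodomain factor that is also strong in striatum and olfactory bulb, was at 29.5, 87.5 and 49.3 CPM against 117, 251 and 255 CPM (log2 change -1.96, SE 0.33, adjusted p = 0.00111). Members of the teashirt family went opposite ways: Tshz2 was higher, as given above, and Tshz3 was lower, at 19.2, 22.5 and 26.8 CPM in the hippocampus and 75.5, 67.6 and 71.4 CPM in the cortex (log2 change -1.66, SE 0.35, adjusted p = 0.00621). Emx2, which patterns the medial pallium, did not pass (1.21), while Emx2os, a noncoding RNA read from its opposite strand, did (2.12). Whether strand entered the counting was not given in the sources used here, so reads of that pair cannot be told apart. Patterning factors that passed numbered 14 higher and 11 lower without the Kif5c-rich library and 5 and 2 with the 6 h libraries alone.

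Nuclear receptors, which sense steroids and other small lipophilic molecules, gave 4 higher and 0 lower of 30 tested, with a median of -0.41. Nr3c2, the mineralocorticoid receptor, which binds corticosterone with high affinity, was at 159, 202 and 225 CPM in the hippocampus and 36.1, 35.5 and 38.3 CPM in the cortex. The levels were steady within each tissue, and every hippocampus library was at least 4 times any cortex library (log2 change 2.399, SE 0.33, adjusted p = 0.000121). Nr3c1, the glucocorticoid receptor, did not pass (-0.23, SE 0.31). The other receptors that passed were Nr2f2, Nr4a3 at 69.3, 50.4 and 70.2 CPM against 46.5, 13 and 11.5 CPM (log2 change 1.69, SE 0.40, adjusted p = 0.0209) and Nr4a2 at 106, 195 and 93.3 CPM against 50.8, 60.6 and 49.5 CPM (log2 change 1.22, SE 0.33, adjusted p = 0.0421). Nuclear receptors that passed numbered 5 higher and 1 lower without the Kif5c-rich library and 3 and 0 with the 6 h libraries alone.

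The Nr4a receptors are also induced by neuronal activity, and the list of activity-induced messages had 3 higher and 0 lower of 20 tested (median -0.33): Nr4a3, Nr4a2 and Jun, which encodes a subunit of AP-1 (97.0, 82.1 and 104 CPM against 49.0, 37.3 and 36.7 CPM, log2 change 1.21, SE 0.33, adjusted p = 0.0448). Fos, Egr1, Npas4 and Arc did not pass (-1.45, -1.26, -1.002 and -0.07). The summed level of the 20 genes was 1516, 1212 and 1175 CPM in the hippocampus and 3525, 1569 and 1107 CPM in the cortex, so the cortex control 1 h library was the high one. Activity-induced messages that passed numbered 3 higher and 2 lower without the Kif5c-rich library and 1 and 0 with the 6 h libraries alone.

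Glutamate receptors and their auxiliary proteins carry fast excitation. Of 37 tested, 4 were higher and 3 lower in the hippocampus (median 0.11), and the differences fell on the auxiliary proteins as well as on the pore subunits. Shisa6, a membrane protein that holds AMPA receptors at synapses, was at 324, 689 and 356 CPM in the hippocampus and 12.5, 21.5 and 25.8 CPM in the cortex (log2 change 4.48, SE 0.39, adjusted p = 7.03e-07). Gria1, the GluA1 subunit of AMPA receptors, was at 472, 457 and 759 CPM against 148, 196 and 213 CPM (log2 change 1.58, SE 0.33, adjusted p = 0.00682), and Cnih2, the cornichon that slows AMPA receptor gating, was higher by 1.26. The other AMPA subunits Gria2, Gria3 and Gria4 did not pass (0.56, -0.27 and -0.61). On the lower side stood Gsg1l, an auxiliary protein that dampens AMPA receptors, at 20.6, 14.7 and 12.2 CPM against 47.2, 56.2 and 67.5 CPM (log2 change -1.85, SE 0.38, adjusted p = 0.00496), and Grm3, a presynaptic and glial metabotropic receptor, at 23.9, 28.7 and 46.2 CPM against 97.4, 104 and 109.7 CPM (log2 change -1.70, SE 0.34, adjusted p = 0.00428). Cacng3, the stargazin relative gamma-3, was lower as well (log2 change -1.25). Of the NMDA receptor subunits tested none passed, with Grin1 at -0.13, Grin2a at 0.76 and Grin2b at 0.23. Members of the list that passed numbered 4 higher and 3 lower without the Kif5c-rich library and 1 and 1 with the 6 h libraries alone.

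GABA receptors gave 1 higher and 1 lower of 15 tested (median 0.16), and both are GABA-A subunits of extrasynaptic receptors that carry tonic inhibition. Gabra5, the alpha-5 subunit, was at 170.5, 887 and 276 CPM in the hippocampus and 32.6, 74.9 and 86.8 CPM in the cortex (log2 change 2.54, SE 0.39, adjusted p = 0.000429). The control 6 h library was about 3 times the next highest. Gabrd, the delta subunit, was at 14.4, 3.10 and 2.50 CPM in the hippocampus and 50.8, 18.1 and 17.4 CPM in the cortex (log2 change -2.28, SE 0.43, adjusted p = 0.00293). For Gabrd the 1 h libraries were the high ones in both tissues, and each pair had less in the hippocampus. GABA receptors that passed numbered 1 higher and 2 lower without the Kif5c-rich library and 1 and 0 with the 6 h libraries alone.

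Receptors of monoamines and acetylcholine gave 5 lower and 2 higher of 26 tested (median -0.46). Htr2a, the serotonin 2A receptor, was at 11.2, 10.8 and 12.5 CPM in the hippocampus and 63.0, 59.6 and 56.8 CPM in the cortex, with little spread in either (log2 change -2.37, SE 0.36, adjusted p = 0.000421). Another serotonin receptor went the other way: Htr4, which raises cyclic AMP, was at 7.67, 7.75 and 8.12 CPM in the hippocampus and 1.43, 0.777 and 0.521 CPM in the cortex (log2 change 3.11, SE 0.60, adjusted p = 0.0035). Chrm5, the M5 muscarinic receptor, was higher on few counts, 33 hippocampal against 2 cortical (ratio 22, 95% counting interval 5.61 to 189). Adra1b, an alpha-1 adrenergic receptor, was at 2.95, 4.65 and 3.43 CPM against 24.3, 11.7 and 17.4 CPM (log2 change -2.32, SE 0.48, adjusted p = 0.0055). Adrb1, the beta-1 adrenergic receptor (-1.82), Chrna4, a nicotinic subunit (-1.29), and Drd1 were the other lower ones. Receptors of this list that passed numbered 4 higher and 7 lower without the Kif5c-rich library and 0 and 1 with the 6 h libraries alone.

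Among receptors of peptides, opioids, cannabinoids and purines 1 was higher and 1 lower of 21 tested (median -0.07). Npy2r, the presynaptic Y2 receptor of neuropeptide Y, was at 31.3, 96.8 and 57.1 CPM in the hippocampus and 0.358, 2.85 and 3.65 CPM in the cortex (log2 change 4.76, SE 0.47, adjusted p = 2.92e-06). Cckbr, the brain receptor of cholecystokinin, was at 7.67, 5.42 and 10.9 CPM in the hippocampus and 71.2, 40.7 and 58.9 CPM in the cortex (log2 change -2.83, SE 0.39, adjusted p = 0.000119). The messages of the peptides themselves, Npy and Cck, did not pass (-1.19 and 0.00). Peptide and purine receptors that passed numbered 1 higher and 4 lower without the Kif5c-rich library and 1 and 1 with the 6 h libraries alone. Of 18 neuropeptide precursors tested 3 were lower and 0 higher (median 0.02): Penk, Tac1 and Adcyap1, which encodes PACAP, at 1.77, 1.55 and 6.24 CPM against 16.5, 17.4 and 19.5 CPM (log2 change -2.52, SE 0.49, adjusted p = 0.00365). Neuropeptide precursors that passed numbered 1 higher and 3 lower without the Kif5c-rich library and 0 and 1 with the 6 h libraries alone.

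**Figure D3:**
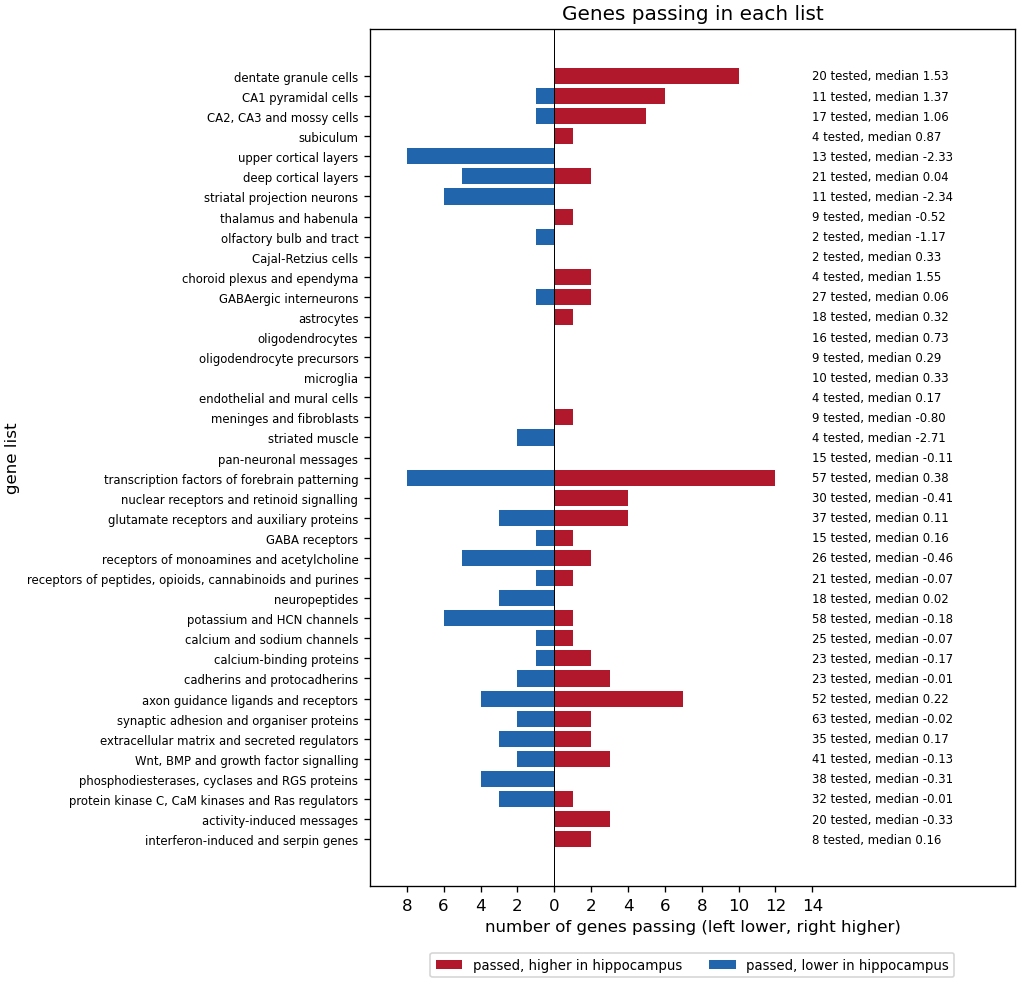
Bars count the genes of each of 39 lists that passed, lower in the hippocampus to the left (blue) and higher to the right (red), with the number tested and the median log2 change at the right. The longest bars are 12 higher patterning factors, 10 higher granule cell markers, 8 lower upper-layer markers and 8 lower patterning factors.

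Potassium and HCN channels set resting potential and firing. Of 58 tested, 6 were lower in the hippocampus and 1 higher (median -0.18), and 3 of the 6 belong to the ether-a-go-go family. For this list and the next, the shares over all genes tested were 1.65% lower and 1.51% higher. In that family Kcnh5 was at 10.6, 13.9 and 16.9 CPM in the hippocampus and 65.9, 77.2 and 78.7 CPM in the cortex (log2 change -2.43, SE 0.36, adjusted p = 0.000278), and Kcnh4 at 1.48, 0 and 1.25 CPM against 15.4, 5.70 and 6.25 CPM (log2 change -3.10, SE 0.62, adjusted p = 0.00428). Kcnh1 was lower by less (-1.15), and Kcnh2, Kcnh3 and Kcnh7 did not pass (-0.92, -0.98 and -1.14). Kcnf1, a silent subunit that modifies Kv2 channels, was at 30.1, 10.8 and 29.0 CPM against 97.0, 77.7 and 76.6 CPM (log2 change -1.90, SE 0.37, adjusted p = 0.00357). Kcnt1, a sodium-activated potassium channel, was at 20.4, 18.6 and 12.8 CPM against 71.6, 53.6 and 58.1 CPM (log2 change -1.85, SE 0.36, adjusted p = 0.00334), and Kcnj4, an inward rectifier, was lower as well (-1.60). Another silent subunit, Kcng2, was the 1 on the hippocampal side, at 23.6, 12.4 and 15 CPM against 3.58, 2.85 and 3.91 CPM (log2 change 2.25, SE 0.44, adjusted p = 0.00406). Potassium and HCN channels that passed numbered 2 higher and 8 lower without the Kif5c-rich library and 0 and 1 with the 6 h libraries alone. Of 25 calcium and sodium channels 1 was higher and 1 lower (median -0.07), both of them beta subunits of sodium channels: Scn3b at 220.0, 199 and 260.0 CPM against 85.5, 101 and 104 CPM (log2 change 1.22, SE 0.32, adjusted p = 0.0345) and Scn4b at 5.60, 2.32 and 4.99 CPM against 34.7, 28.8 and 27.9 CPM. Calcium and sodium channels that passed numbered 2 higher and 2 lower without the Kif5c-rich library and 0 and 1 with the 6 h libraries alone.

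Calcium-binding proteins gave 2 higher and 1 lower of 23 tested (median -0.17). Hpca, which encodes hippocalcin, a calcium sensor named after the hippocampus, was at 3969, 2752 and 4015 CPM in the hippocampus and 1286, 1103 and 963 CPM in the cortex (log2 change 1.67, SE 0.37, adjusted p = 0.0119). Its message was abundant in both tissues, and the hippocampus libraries were all higher. Cabp7, a calmodulin-like protein, was at 21.8, 5.42 and 18.1 CPM against 3.22, 0.518 and 0.261 CPM (log2 change 3.66, SE 0.59, adjusted p = 0.000676), and Necab3 was lower, at 66.9, 59.6 and 68.7 CPM against 355, 216 and 224 CPM (log2 change -1.99, SE 0.33, adjusted p = 0.000886). Calcium-binding proteins that passed numbered 4 higher and 4 lower without the Kif5c-rich library and 1 and 0 with the 6 h libraries alone.

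Axon guidance ligands and receptors steer growing axons and persist at adult synapses. Of 52 tested, 7 were higher and 4 lower in the hippocampus (median 0.22). Among receptors, Nrp1, the neuropilin that binds class 3 semaphorins, was at 51.3, 118 and 70.9 CPM in the hippocampus and 10.7, 12.2 and 13.3 CPM in the cortex (log2 change 2.65, SE 0.37, adjusted p = 0.000147). Plxnd1, the plexin that receives Sema3e, was lower, at 9.44, 6.2 and 9.99 CPM against 75.9, 42.5 and 32.3 CPM (log2 change -2.46, SE 0.40, adjusted p = 0.000751). Of their ligands, Sema3e was higher in the hippocampus, as given above, and Sema3a, which binds Nrp1, was lower, at 3.24, 11.6 and 5.31 CPM against 16.5, 39.9 and 40.9 CPM (log2 change -2.36, SE 0.42, adjusted p = 0.00171). Slit1, a ligand of Robo receptors, was at 128, 50.4 and 118 CPM against 39.0, 17.4 and 17.7 CPM (log2 change 1.998, SE 0.36, adjusted p = 0.00191), and Slit3 was higher by 1.28. The ephrin receptor Epha6 (1.93) and the netrin receptor Dcc (1.48) were higher, while Ephb6 (-1.61) and the ligand Efna5 (-1.49) were lower. Guidance genes that passed numbered 11 higher and 3 lower without the Kif5c-rich library and 3 and 1 with the 6 h libraries alone.

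Cadherins and protocadherins, which sort neurons by adhesion, gave 3 higher and 2 lower of 23 tested (median -0.01), and relatives went opposite ways. Pcdh20 was at 70.8, 112 and 113 CPM in the hippocampus and 11.1, 12.7 and 18.5 CPM in the cortex (log2 change 2.80, SE 0.35, adjusted p = 5.99e-05), and Pcdh19 was higher by 1.304 (SE 0.32). In contrast, Pcdh10 was at 58.7, 69.7 and 109 CPM against 200.5, 215 and 256 CPM (log2 change -1.54, SE 0.32, adjusted p = 0.00643). Cdh9, a cadherin of mossy fibre synapses, was higher (log2 change 1.39, SE 0.37, adjusted p = 0.0376), although the cortex control 6 h library at 18.9 CPM lay above the hippocampus control 1 h library at 17.7 CPM. Cdh7 was lower, at 2.65, 7.75 and 4.37 CPM against 16.5, 28.2 and 23.7 CPM (log2 change -2.30, SE 0.44, adjusted p = 0.00292). Cadherins and protocadherins that passed numbered 2 higher and 5 lower without the Kif5c-rich library and 1 and 0 with the 6 h libraries alone, so the balance of higher and lower members depended on the libraries used. Of 63 synaptic adhesion and organiser proteins 2 were higher, C1ql2 and Amigo2, and 2 lower (median -0.02). Over all genes tested 1.51% passed higher and 1.65% lower. Cbln2, a secreted cerebellin that bridges neurexins to postsynaptic receptors, was lower at 4.13, 2.32 and 6.55 CPM against 17.9, 28.8 and 35.4 CPM (log2 change -2.57, SE 0.45, adjusted p = 0.00133), as was Adgrl2, a latrophilin (log2 change -1.31, SE 0.34, adjusted p = 0.0347). The neurexins and neuroligins tested did not pass, with Nlgn1 at 0.44. Synaptic adhesion proteins that passed numbered 4 higher and 5 lower without the Kif5c-rich library and 1 and 1 with the 6 h libraries alone.

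Secreted signals and matrix proteins showed single genes with large differences. Tgfb2, a transforming growth factor, was at 33.0, 104 and 58.1 CPM in the hippocampus and 2.51, 4.92 and 6.25 CPM in the cortex (log2 change 3.76, SE 0.41, adjusted p = 1.39e-05). Fgfr1, a fibroblast growth factor receptor, was at 58.7, 44.9 and 63.0 CPM against 19.3, 13 and 15.9 CPM (log2 change 1.79, SE 0.35, adjusted p = 0.00373), and its ligand family member Fgf10 was higher by 1.94 (SE 0.47). Bmp3, a bone morphogenetic protein that opposes other members of its family, was lower at 5.31, 7.75 and 8.43 CPM against 37.6, 32.9 and 42.2 CPM (log2 change -2.42, SE 0.40, adjusted p = 0.000767), as was Wnt9a (log2 change -3.11, SE 0.57, adjusted p = 0.00219). These were the 3 higher and 2 lower of 41 tested in that list (median -0.13), which numbered 3 higher and 4 lower without the Kif5c-rich library and 1 and 0 with the 6 h libraries alone. Of 35 matrix genes 2 were higher and 3 lower (median 0.17), where 1.51% of all genes tested passed higher and 1.65% lower. Thsd4, a thrombospondin-repeat protein of microfibrils, was at 31.0, 65.8 and 47.5 CPM against 3.58, 5.96 and 6.77 CPM (log2 change 3.116, SE 0.39, adjusted p = 5.78e-05). Abi3bp, a secreted matrix protein, was at 0, 4.65 and 0.936 CPM against 27.6, 32.9 and 37.0 CPM (log2 change -4.68, SE 0.65, adjusted p = 0.000406), and Igfbp6 (-2.76) and Sulf1, a heparan sulphate sulphatase (-2.48), were lower too. Matrix genes that passed numbered 3 higher and 3 lower without the Kif5c-rich library and 2 and 1 with the 6 h libraries alone.

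Regulators of cyclic nucleotides and G proteins had 4 lower and 0 higher of 38 tested (median -0.31). Rgs4, a GTPase-activating protein of Gq and Gi signalling, was at 199, 309 and 319.9 CPM in the hippocampus and 851, 810.1 and 1191 CPM in the cortex (log2 change -1.80, SE 0.35, adjusted p = 0.00334). Gucy1a1, a subunit of the nitric oxide receptor, was at 35.1, 86.0 and 46.8 CPM against 157, 263 and 224 CPM (log2 change -2.01, SE 0.33, adjusted p = 0.000782), and Rgs6 (-2.29) and Pde7b, a cyclic AMP phosphodiesterase (-1.47), were lower too. Genes of this list that passed numbered 2 higher and 9 lower without the Kif5c-rich library and 0 and 0 with the 6 h libraries alone. Among protein kinase C, CaM kinases and Ras regulators 3 were lower and 1 higher of 32 (median -0.01). The lower ones were Rasgef1c (log2 change -3.82, SE 0.50, adjusted p = 7.48e-05) and Rasgef1b (log2 change -2.72, SE 0.36, adjusted p = 7.61e-05), exchange factors of Ras-family GTPases, and Camk2d, the delta subunit of CaM kinase II (log2 change -1.68, SE 0.33, adjusted p = 0.00405). Camk2a and Camk2b, the main neuronal subunits, did not pass (0.01 and 0.49). Prkcd, protein kinase C delta, was higher at 23.6, 9.30 and 28.4 CPM against 5.37, 6.48 and 4.17 CPM (log2 change 1.87, SE 0.47, adjusted p = 0.0303). Kinases and Ras regulators that passed numbered 2 higher and 8 lower without the Kif5c-rich library and 0 and 2 with the 6 h libraries alone.

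Messages of the pan-neuronal list, which includes Slc17a7, Camk2a and Camk2b, and most glial markers did not separate the tissues by the test. Of 15 pan-neuronal messages 0 passed (median -0.11), with Snap25 at 7933, 35840 and 20270 CPM in the hippocampus and 11490, 31860 and 33920 CPM in the cortex. Snap25, a protein of vesicle release, was lowest in the 1 h library of each tissue, and the tissues overlapped. Astrocyte markers gave 1 of 18 (median 0.32): Gfap, the intermediate filament of fibrous astrocytes, at 119, 59.6 and 122 CPM against 48.7, 18.9 and 21.6 CPM (log2 change 1.81, SE 0.35, adjusted p = 0.00373). Slc1a2, Slc1a3 and Aqp4 did not pass (0.11, 0.41 and 0.56). Astrocyte markers that passed numbered 1 higher and 0 lower without the Kif5c-rich library and 0 and 0 with the 6 h libraries alone. All 16 oligodendrocyte markers were positive with a median of 0.73, and 0 passed. Mbp, myelin basic protein, was at 683, 182 and 555 CPM against 467, 270.0 and 248 CPM with overlap (0.39). The summed level of the 16 markers was 1959 to 2248 CPM in the hippocampus and 1240 to 1405 CPM in the cortex. Oligodendrocyte markers that passed numbered 4 higher and 0 lower without the Kif5c-rich library and 0 and 0 with the 6 h libraries alone. With all 6 libraries kept, 4 passed higher with an offset for GC content and length, 1 with DESeq2 and 1 with limma-voom, so the call of that list depended on the processing. Precursors of oligodendrocytes (0 of 9, median 0.29), microglia (0 of 10, median 0.33) and endothelial and mural cells (0 of 4, median 0.17) did not pass.

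GABAergic interneuron markers gave 2 higher and 1 lower of 27 (median 0.06). The 2 were Prox1 and Nr2f2, which principal cells or other cells of the hippocampus also use, and the 1 was Tac1. The general markers Gad1, Gad2 and Slc32a1 did not pass (0.00, -0.54 and -0.62), nor did Pvalb, Sst and Vip (-0.59, 0.67 and -0.87). Interneuron markers that passed numbered 3 higher and 1 lower without the Kif5c-rich library and 2 and 0 with the 6 h libraries alone. Reln and Ndnf, the Cajal-Retzius markers tested, did not pass (0.06 and 0.59), and the Cajal-Retzius list numbered 1 higher and 0 lower without the Kif5c-rich library and 0 and 0 with the 6 h libraries alone.

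Of the markers of other neighbouring structures, 1 or 2 per list passed. Over all genes tested, 1.51% passed higher and 1.65% lower. Ttr, which choroid plexus cells secrete as transthyretin, was at 54.6, 6.2 and 74.6 CPM in the hippocampus and 2.51, 2.85 and 2.60 CPM in the cortex (log2 change 3.70, SE 0.59, adjusted p = 0.0013), and the hippocampus control 6 h library was the low one. Kl, the klotho gene of choroid plexus and some neurons, was at 16.5, 15.5 and 27.2 CPM against 1.79, 2.59 and 1.56 CPM (log2 change 3.28, SE 0.49, adjusted p = 0.000316). Of the other 13 markers of choroid plexus and ependyma, 11 were below the count filter, at no more than 10.9 CPM in any of the 6 libraries, and 2 did not pass. Choroid plexus and ependymal markers that passed numbered 3 higher and 0 lower without the Kif5c-rich library and 1 and 0 with the 6 h libraries alone. Of 9 thalamus and habenula markers tested Prkcd alone passed, the list median was -0.52, and Pou4f1 was at 0 in all 6 libraries. Of 9 meningeal markers tested Dcn alone passed, against a list median of -0.80. Of the olfactory list, 2 of 9 were tested and Meis2 was lower. Thalamic and habenular markers that passed numbered 1 higher and 1 lower without the Kif5c-rich library and 0 and 0 with the 6 h libraries alone. Olfactory markers numbered 0 higher and 2 lower without the Kif5c-rich library and 0 and 0 with the 6 h libraries alone. The part of cells from these structures in the differences was not tested.

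**Figure D4:**
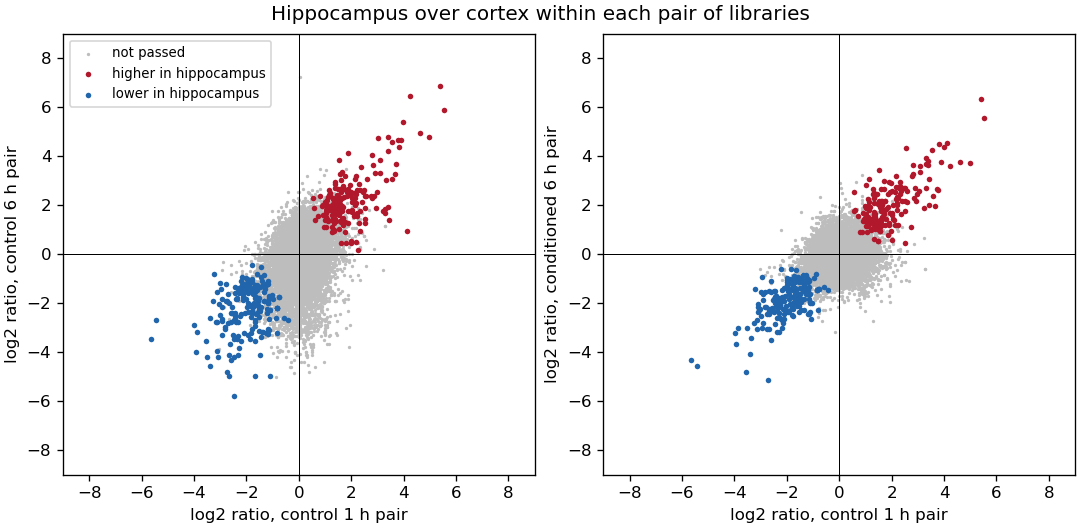
The log2 ratio of hippocampus to cortex in the control 1 h pair is plotted against the control 6 h pair (left) and the conditioned 6 h pair (right) for all genes tested. Genes that passed, in red (higher) and blue (lower), lie on the same side of 0 in every pair, and the grey cloud is widest in the control 6 h direction.

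For the genes that passed, the difference between the tissues was read in each pair: the median log2 ratio of the higher genes was 1.65 in the control 1 h pair, 2.07 in the control 6 h pair and 1.94 in the conditioned 6 h pair, and that of the lower genes was -1.93, -2.10 and -1.81. These medians describe genes chosen on the same libraries. Over all genes tested, 1455, 4029 and 1356 genes were at least 2-fold apart in the 3 pairs, and Spearman's rho across genes was 0.33 between the control pairs, 0.18 between control 1 h and conditioned 6 h and 0.15 between the 6 h pairs. Genes are not independent replicates, and the pairs share no library.

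Whether the tissue difference itself changed between 1 h and 6 h was tested with a tissue by time term on the same 6 libraries, which had 1 pair at 1 h and 2 pairs at 6 h. Of 11604 genes 0 passed in edgeR (0.0%). An unadjusted p under 0.05 was found for 132, and DESeq2 passed 0 and gave 41 such genes. The 3 genes of smallest p with a tissue difference lower at 6 h were Ndufa1, a subunit of respiratory complex I (change in the difference -4.01, SE 1.11), Lsm7, a component of RNA decay and splicing complexes (-4.15, SE 1.15), and Cox7a2l, an assembly factor of respiratory supercomplexes (-3.71, SE 1.06). In the other direction stood Kif5c (5.04, SE 1.79), Dusp5, a phosphatase of ERK (3.62, SE 1.52), and Abi3bp (5.45, SE 2.35). The edgeR adjusted p of all genes named here was 0.9999. Kif5c stood at 147100 CPM in the Kif5c-rich library, against 510 CPM in the hippocampus control 1 h library and 7450 CPM in conditioned 6 h. Ndufa1, Lsm7 and Cox7a2l were lowest in the Kif5c-rich library, at 0.775, 0.775 and 3.87 CPM. In the hippocampus conditioned 6 h library they were at 2.185, 1.561 and 29.65 CPM. For Dusp5 the conditioned 6 h library was the lowest hippocampus library, at 2.81 CPM. The residual degrees of freedom numbered 1 in this fit.

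The conditioned 1 h libraries that were left out lay between the tissues for most of these genes. Both had a level between the 1 h controls of hippocampus and cortex for 162 of the 175 higher genes and for 178 of the 191 lower ones. The 1 h controls were among the libraries that picked these genes, so for these genes they lie apart by selection. How often the other genes tested lay between them was not counted. Prox1 was at 92.8 and 89.7 CPM in the libraries labelled cortex and hippocampus, Shisa6 at 166 and 164 CPM and Stard8 at 49.6 and 47.4 CPM. For each of these 3 genes both libraries lay between the hippocampus and the cortex libraries of the comparison, for Stard8 nearer to the cortex, where the lowest library was at 61.2 CPM. With all 8 libraries in the fit, 0 of 11573 genes passed in edgeR, and 1049 had an unadjusted p under 0.05. Of the 366 genes, 355 were tested there and all of these kept their sign, in a fit that includes the libraries in which they were picked.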

How the data were processed

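Polyribosome-associated RNA was sequenced from 8 libraries, and 6 were compared here. Per the labels' protocols, ribosomal RNA was depleted, and reverse transcription started from random and poly A primers, with amplification of the cDNA before adapters were added. The authors deposited raw read counts for each RefSeq transcript in 1 table. The submitters' processing notes list the build mm9 and the tools TopHat 1.3.1, CASAVA 1.7, limma 3.12.3 and edgeR 2.612. How reads were counted, and whether by strand, was not given in the sources used here.

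Of 28157 table entries 97.9% were matched to a symbol through RefSeq and GENCODE tables of GRCm38. The 594 without a match, at most 1.99% of the counts of any library, were tested under their identifiers. Each gene was represented by its transcript of highest total count, which left 22163 genes. edgeR 4.0.16 (R 4.3.3) was run on the counts with TMM factors, its default low-count filter, a robust quasi-likelihood fit, tissue as the term and the pair of same time and training as a block (2 residual degrees of freedom), with Benjamini-Hochberg adjustment at 0.05. The labels do not say that a pair shares animals. The SE is the log2 change divided by the root of its F statistic. CPM uses the same TMM factors, and pair ratios add a prior count of 2. DESeq2 1.42.0, limma 3.58.1 (voom), other scalings, filters, libraries and an offset for GC content and length were tried as alternatives, and the edgeR step was tested on simulated data.

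Genes were named by rule: the 12 largest changes each way among non-overlapping genes with an average log2 CPM of at least 3, up to 5 passing genes per list (where none passed, the 2 most abundant), and family members that passed in opposite directions. Other genes were named after their values were seen, and a few genes of the rule are not reported here. The libraries compared and the 39 gene lists were chosen with earlier results of these data known, so list counts describe these libraries and are not independent support. Promoters came from RefSeq (GRCm38.p6) by symbol, and the counts rest on mm9.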

Additional observations from a re-analysis of the deposited data

Results flagged for a closer look

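The conditioned 1 h libraries were outside the comparison, and most genes that passed had a level in them beyond the range of the libraries with the same tissue label. These genes were picked because they differ between the tissues, and what the pair contains was not tested. How often the other genes tested lay outside the range in this way was not counted, so the numbers below have no background beside them. Of the 175 genes that were higher in the hippocampus, 144 stood in the library labelled cortex conditioned 1 h above all 3 cortex libraries, and 144 stood in the library labelled hippocampus conditioned 1 h below all 3 hippocampus libraries. Of the 191 genes that were lower in the hippocampus, 175 stood in the library labelled hippocampus conditioned 1 h above all 3 hippocampus libraries, and 131 stood in the library labelled cortex conditioned 1 h below all 3 cortex libraries. Among single genes, Dsp was at 9.73 and 12.9 CPM in the libraries labelled cortex and hippocampus, against at most 0.259 CPM in a cortex library and at least 26.8 CPM in a hippocampus library of the comparison. Tnnc1 was at 17.9 and 15.8 CPM, against at most 0.775 CPM in a hippocampus library of the comparison and 31.9, 15 and 12.2 CPM in the cortex libraries, so that both values lay inside the cortex range.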

How the results depend on the processing

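The number of genes that passed was 366 (175 higher and 191 lower in the hippocampus). It was 373 with DESeq2, 435 with limma-voom, 465 with DESeq2 size factors, 258 with upper-quartile factors, 326 with transcripts summed and 367 without Kif5c. With all transcripts in the fit, 382 of the 11604 transcripts that represent a gene passed. Over all 15555 transcript entries tested in that fit, 541 passed (246 higher and 295 lower). Without a low-count filter it was 638 (296 and 342), with at least 50 counts in 3 libraries 195 (86 and 109), with the 6 h libraries alone 98 (56 and 42), with all 8 libraries 0 (0 and 0) and with an offset for GC content and length beside the replicate block 696 (353 and 343). Without the block by pair of time and training it was 55 (30 and 25), all 55 among the 366. With the block, leaving out 1 library took its pair out of the tissue term. Done for each library in turn, this gave 70 to 616 genes, 42 to 305 higher and 28 to 314 lower. In each of these fits every gene of the 366 that was tested had the same sign. The fits reuse libraries in which that sign was already the same in each pair, so this is no separate support. The tissue by time test passed 0 genes in edgeR, with DESeq2, with upper-quartile factors and with the stricter filter. Of the 118 genes named by rule, 4 changed sign in at least 1 of these fits, and these had not passed. Camk2a was at -0.03 with upper-quartile factors and at -0.01 without a filter and with the stricter one. Sox6 was at 0.01 and Vtn at 0.14 with the 6 h libraries alone, and Vtn at 0.10 with the offset. With 1 library left out at a time, Camk2a ranged from -0.18 to 0.25, Sox6 from -0.34 to 0.01, Vtn from -0.67 to 0.16 and Reln from -0.03 to 0.22. Depth limits the genes of few counts, such as Dsp, C1ql2, Tnnc1 and Igfn1, whose lower tissue held 1 to 3 counts.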

Other observations

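Further families were read after the values of the comparison had been seen, and they have no test as families. Copines, calcium-dependent membrane-binding proteins, were divided: of 9 tested, Cpne7 (2.84), Cpne2 (1.86) and Cpne6 (1.35) passed higher in the hippocampus and Cpne5 (-3.04) and Cpne9 (-2.18) lower. Cpne5 was at 15.9, 6.2 and 16.9 CPM in the hippocampus libraries (control 1 h, control 6 h and conditioned 6 h) and at 143, 104 and 77.6 CPM in the cortex libraries, without overlap.

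In other families members passed on the hippocampal side, where 1.51% of all genes tested passed. Of 8 DOCK proteins, activators of small GTPases, 3 passed higher: Dock10 (2.20), Dock4 (1.55) and Dock9 (1.295). Of 8 sodium-proton exchangers Slc9a4 (5.93) and Slc9a2 (3.37) passed higher. Of 17 Kctd proteins Kctd12, an auxiliary subunit of GABA-B receptors (1.61), and Kctd4 (2.08) passed higher. Among 4 plakophilins and desmosomal proteins tested Dsp and Pkp2 passed higher. Of 13 interleukin receptors and ligands, Il1r1 (3.97), Il16 (3.75) and Il1rap, the partner chain of Il1r1 (1.55), passed higher. Il11ra2, 1 of the duplicated genes of the Ccl27 and Il11ra set, passed lower. Over all genes tested 1.65% passed lower.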
